A study of Rattus norvegicus with 9 samples.

Results

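The genes of T lymphocytes and natural killer (NK) cells were followed in the contused rat spinal cord, as 39 symbols that were looked up by name in the count table (the row with the highest total wherever a symbol occurred more than once, which none did). Of these, 38 had a row among the 30507 rows, and Sh2d1a, which encodes the adaptor SAP of T and NK cells, had none. The members covered the T cell receptor complex (4 genes), its co-receptors (3), T cell surface and costimulatory proteins (8), proximal signaling (9, Sh2d1a included), transcription factors (3), cytotoxic granules (6), NK receptors (4) and cytokine receptors (2).

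The libraries came from T9 to T11 cord of female Sprague-Dawley rats, bought at 8 weeks of age and sampled at 35 dpi after saline perfusion, with 3 rats in each of 3 groups. Sham rats had a T10 laminectomy only, although the labels call them untreated. The SCI group had a contusion of 150 kdyn at T10 and carried an electrode plug in the skin of the neck without an electrode, and the SCI + SCS group had the same contusion together with an epidural electrode driven at 10 kHz, 0.12 mA and 30 µs per pulse for 2 h per day from 1 dpi. All rats were wild type, with no transgene or cell transplant, and the labels name a single batch. The study did not sequence its implanted group without stimulation, so the electrode and the current cannot be told apart in what follows.

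T cells recognize antigen through a receptor that signals through the CD3 chains and the zeta chain CD247. CD4 marks helper and regulatory T cells, and CD8, a dimer of alpha and beta chains, marks cytotoxic T cells, which like NK cells kill through perforin and granzymes. Few T cells are found in the healthy cord, and they enter it after a contusion and can stay into the chronic phase. In the rat, CD4 is also carried by monocytes, macrophages and microglia, and the CD8 alpha chain also by NK cells and by some macrophages, whereas the CD3 chains are largely restricted to T cells.

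Promoter sequences were available for 31 of the 39 genes (RefSeq, build GRCr8, 250 bases before to 50 bases after the start of the gene). They are given here for Cd3e and Cd8a, whose levels diverged within the libraries, and for Cd2 and Nkg7, a T cell adhesion gene and a granule gene. Each is printed in the direction of the gene, and capitals mark every GGAA, the core of sites for ETS factors, and every TGTGGT, a core of sites for RUNX factors, or their reverse complements TTCC and ACCACA.
Cd3e (chr8:54211721-54212020, minus strand): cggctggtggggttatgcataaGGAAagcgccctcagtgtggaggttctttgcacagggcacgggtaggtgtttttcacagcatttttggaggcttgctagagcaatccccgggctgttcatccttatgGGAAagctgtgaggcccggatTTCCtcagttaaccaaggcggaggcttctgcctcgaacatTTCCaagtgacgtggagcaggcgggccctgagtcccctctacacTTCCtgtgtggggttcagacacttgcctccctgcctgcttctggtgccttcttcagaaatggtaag
Cd8a (chr4:104923866-104924165, plus strand): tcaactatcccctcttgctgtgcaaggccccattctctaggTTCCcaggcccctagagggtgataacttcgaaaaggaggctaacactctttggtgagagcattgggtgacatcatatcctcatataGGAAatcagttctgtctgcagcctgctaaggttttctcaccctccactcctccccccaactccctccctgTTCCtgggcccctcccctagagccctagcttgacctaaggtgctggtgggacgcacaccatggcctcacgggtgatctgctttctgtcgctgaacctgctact
Cd2 (chr2:191412610-191412909, minus strand): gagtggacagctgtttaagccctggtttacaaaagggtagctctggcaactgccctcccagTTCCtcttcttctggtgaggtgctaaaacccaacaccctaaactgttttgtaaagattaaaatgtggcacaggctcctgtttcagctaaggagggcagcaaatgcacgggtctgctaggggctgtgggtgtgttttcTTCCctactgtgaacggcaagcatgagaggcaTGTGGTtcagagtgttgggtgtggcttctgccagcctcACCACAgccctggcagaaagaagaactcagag
Nkg7 (chr1:102981247-102981546, plus strand): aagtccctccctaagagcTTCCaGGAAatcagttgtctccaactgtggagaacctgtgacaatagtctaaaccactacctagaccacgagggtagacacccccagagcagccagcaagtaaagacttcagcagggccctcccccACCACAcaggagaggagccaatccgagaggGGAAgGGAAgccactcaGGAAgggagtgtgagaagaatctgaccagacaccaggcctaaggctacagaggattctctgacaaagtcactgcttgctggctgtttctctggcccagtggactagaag

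The GGAA letters were common everywhere, in 95.8% of 33469 promoters of this length and in 29 of the 31 of the list (93.5%). TGTGGT was found in 17 of the 31 (54.8%) and in 17.3% of all promoters. Cd2 held it at 2 positions and Nkg7 at 1, while the windows of Cd3e and Cd8a held none. On both strands, the T-box letters GGTGTGA were found in 3 of the 31 (9.68%, against 3.83% of all), the TCF/LEF letters CTTTGA in 8 (25.8%, against 16.1%) and the GATA letters AGATAA in 3 (9.68%, against 11.6%). The list was counted with 1 promoter per gene, whereas the 33469 promoters were not reduced to 1 per gene. Matches of different motifs were allowed to overlap. These matches describe letters only, and no binding was measured.

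Library totals lay between 62844376 and 88358570 counts, and 3 counts, taken as the floor of detection, were 0.0341 to 0.047 CPM (counts scaled to the library total and the TMM factor) in a library. Most of the lymphocyte genes were low. Of the 38 genes, 21 exceeded 100 counts in any library and 5 exceeded 500 counts, 7 never exceeded 20 counts, and 15 were listed at 0 in at least 1 Sham library. Values of 1 and 2 were rarer in the table than values of 4 (1063, 990 and 2116 values among protein-coding rows), so a small count may have been listed as 0. In bulk tissue, fewer cells of a type and less RNA per cell cannot be told apart. The plot of levels by library shows every member.

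**Figure D1:**
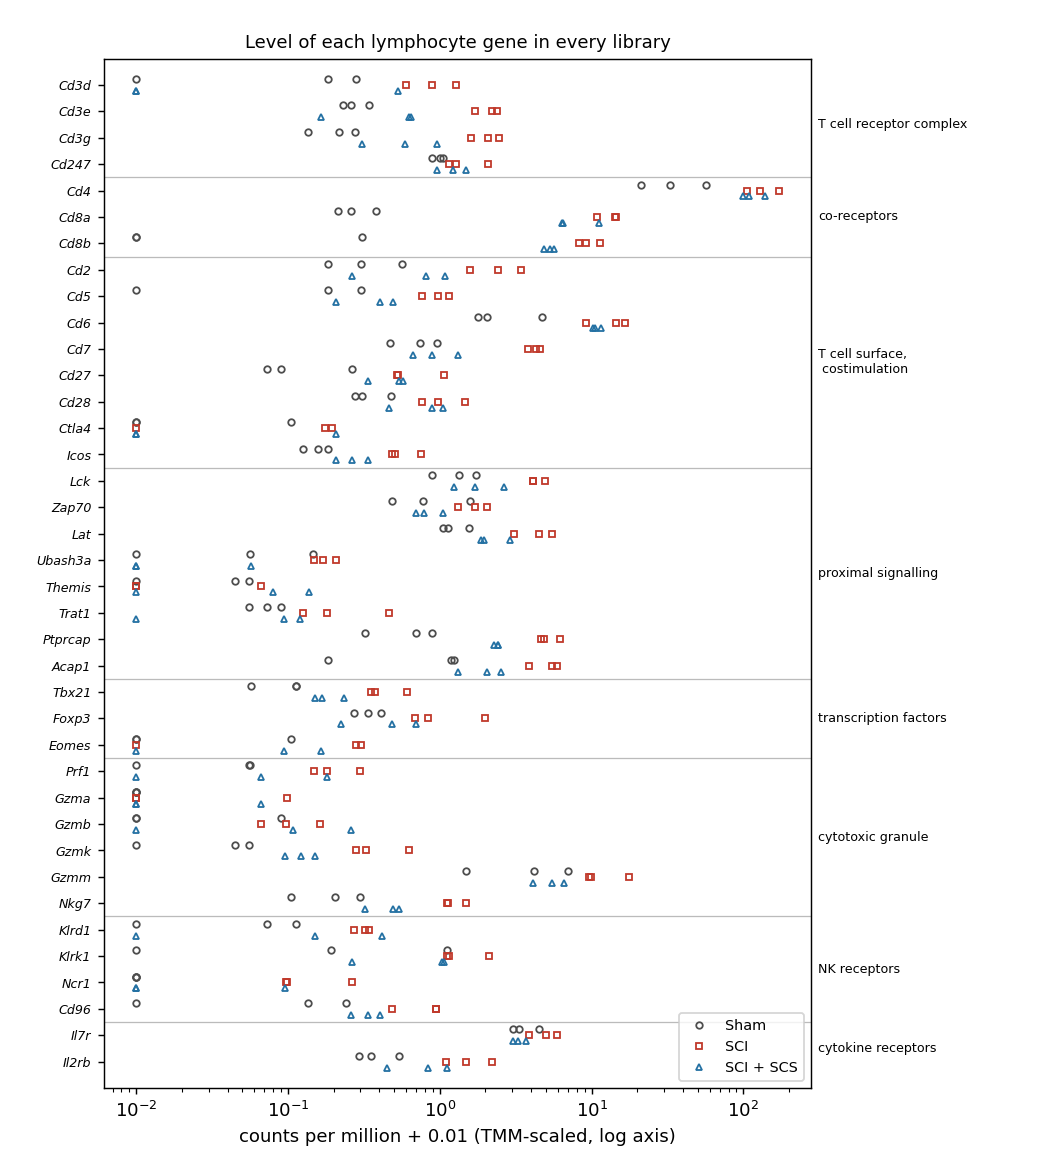
Level of each of the 38 lymphocyte genes in the 9 libraries, as TMM-scaled CPM plus 0.01 on a log axis, grouped by role. Circles are Sham, squares SCI and triangles SCI + SCS libraries, and points at the left edge are listed at 0. Cd4 stood highest, and the SCI + SCS points of Cd8a, Cd8b and Cd6 lay well above the Sham points, while those of Cd3d, Cd3e and Cd7 overlapped them.

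The comparison of the SCI with the Sham group asked what a contusion had left in the lymphocyte genes at 35 dpi. DEGs had |log2FC|>1 and an adjusted p under 0.05 in edgeR. Of the 38 genes, 20 rose and 0 fell, against a background of 13.4% higher and 13.6% lower among the 17822 rows tested. The filter on low counts passed 30 of the 38, all 30 with a log2FC above 0 (50.8% of all rows tested), and without the filter 21 of 38 rose (10.3% of all rows). DESeq2, another count test, called 26 higher (11.9% of rows) and 0 lower (11.6%). All 3 SCI libraries lay above all 3 Sham libraries for 31 of the 38 genes, which was so for 27% of the rows with any count. The median log2FC over the 38 genes was 2.32, or 2.21 with the gene listed at 0 in the Sham group that cleared the floor set at its bound and the other left out, and that over all rows was 0.01.

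The comparison of the SCI + SCS with the SCI group asked what stimulation changed. No lymphocyte gene passed the test in edgeR, where the background was 0.00566% higher, a single row without a gene symbol that was listed at 0 in all 3 SCI libraries, and 0% lower. DESeq2 called 11 of the 38 lower (1.6% of all rows) and 0 higher (1.92%), and 9 had no adjusted p there. At an unadjusted p under 0.05 with |log2FC|>1, 14 of the 38 lay lower (2.56% of rows) and 0 higher (3.03%) in edgeR, and 9 had a negative log2FC with an adjusted p under 0.1 (2.6% of rows). The log2FC was below 0 for all 32 genes that passed the filter (50.7% of rows), and all 3 SCI + SCS libraries lay below all 3 SCI libraries for 23 of the 38 genes (11.8% of the rows with any count). The median log2FC over the 38 genes was -1.17, against -0.01 over all rows.

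The comparison of the SCI + SCS with the Sham group measured what remained of the injury difference in stimulated cords. It shares the stimulated libraries with the comparison above and the Sham libraries with the former one, so the 3 comparisons are not independent. The co-receptor genes Cd4, Cd8a and Cd8b, the surface gene Cd6 and Ptprcap were higher, 5 of 38 against a background of 6.28% of 17640 rows, and 0 of 38 were lower (5.44% of rows). DESeq2 called these 5 with Cd3g and Cd27 (6.08% of rows higher, 5.33% lower). Without SCI + SCS replicate 1, Cd8a alone was called, and without Sham replicate 2 Cd8a, Cd8b and Ptprcap were. All 3 SCI + SCS libraries lay above the Sham libraries for 14 of the 38 genes (22.2% of the rows with any count), and the median log2FC was 1.17, or 1.14 with genes listed at 0 in the Sham group left out, against 0.00 over all rows.

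**Figure D2:**
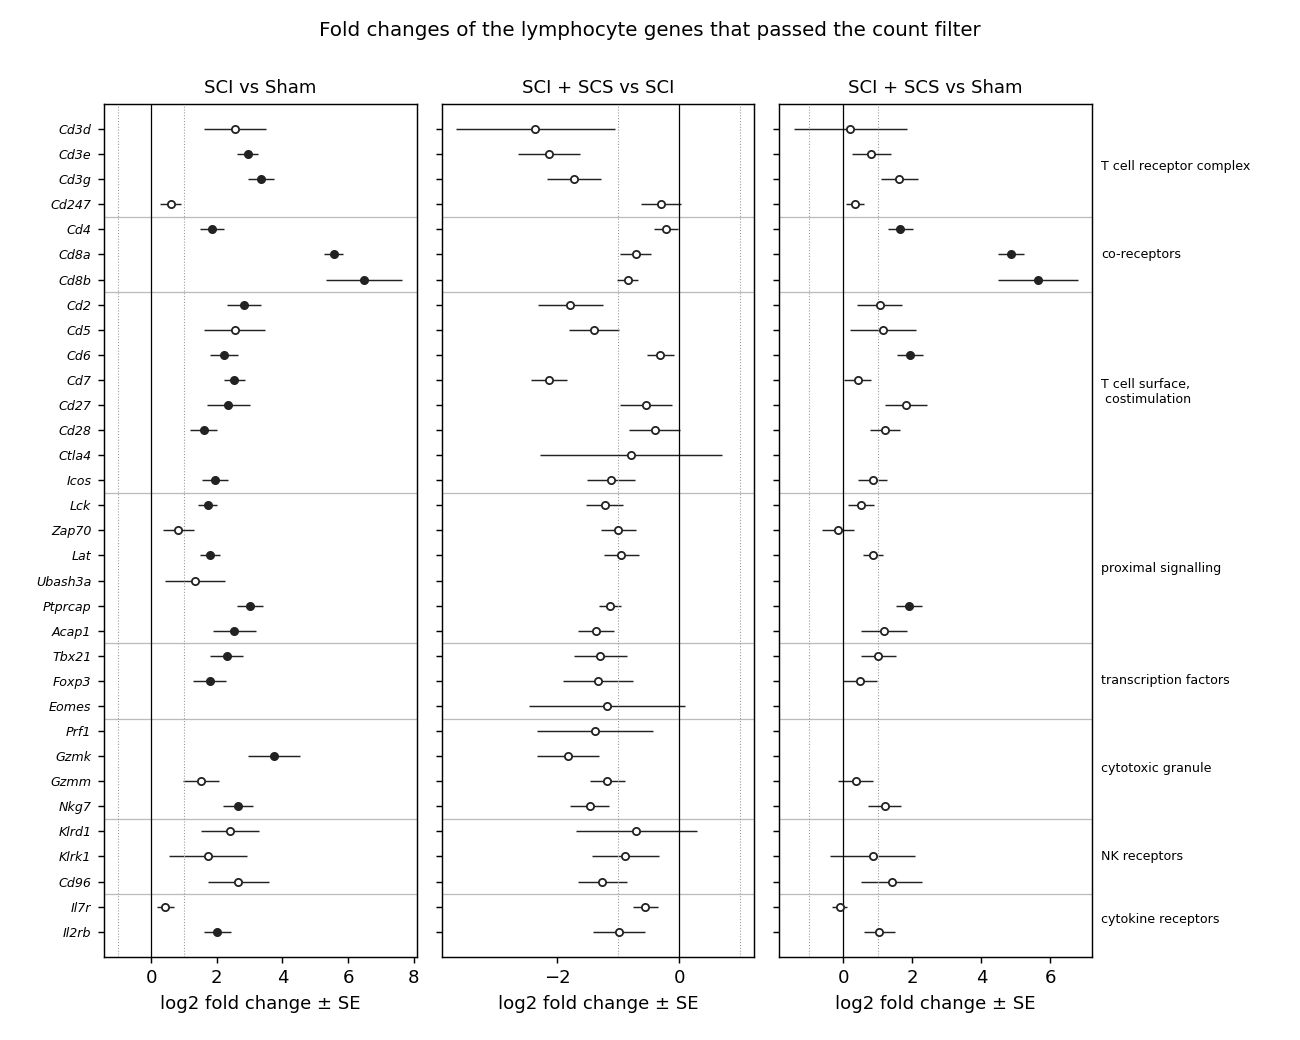
Log2 fold change and SE from edgeR (3 rats per group) for the lymphocyte genes that passed the count filter, by role, in each comparison. Filled points passed the test and open points did not, and dotted lines mark a log2FC of -1 and 1. In SCI against Sham 20 points are filled, in SCI + SCS against SCI all 32 points are open and left of 0, and in SCI + SCS against Sham 5 points are filled.

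Among the co-receptors, all 3 genes rose after injury (13.4% of all rows tested). Cd8a (ENSRNOG00000007178, chr4:103365804-103370040 in the deposited annotation) encodes the alpha chain of CD8. Its counts were 13, 22 and 32 in the Sham libraries, 851, 1013 and 1006 in the SCI libraries and 452, 455 and 719 in the SCI + SCS libraries. Every injured library stood far above every Sham library, and SCI + SCS replicate 3 lay among the CPM values of the SCI group. The log2FC was 5.56 (SE 0.29, adjusted p = 0.000783) for SCI against Sham, 4.86 (SE 0.37, adjusted p = 0.00315) for SCI + SCS against Sham, and -0.71 (SE 0.26, adjusted p = 0.157) for SCI + SCS against SCI.

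Cd8b (ENSRNOG00000007129, chr4:103312578-103328553), the beta chain that most cytotoxic T cells add to the alpha chain, was counted at 0, 0 and 26 in the Sham, 651, 803 and 630 in the SCI and 381, 343 and 362 in the SCI + SCS libraries. The 3 groups did not overlap. SCI exceeded Sham by a log2FC of 6.48 (SE 1.17, adjusted p = 0.00546) and SCI + SCS exceeded Sham by 5.64 (SE 1.15, adjusted p = 0.0155), both resting on Sham libraries of which 2 were at 0. Between SCI + SCS and SCI the log2FC was -0.85 (SE 0.17, adjusted p = 0.0782).

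Cd4, the co-receptor of helper and regulatory T cells, had 1347, 2899 and 4934 counts in the Sham, 13562, 7481 and 8862 in the SCI and 7066, 9803 and 6972 in the SCI + SCS libraries. The injured groups overlapped each other and lay above the Sham group. The log2FC was 1.86 (SE 0.37, adjusted p = 0.00755) for SCI against Sham, 1.65 (SE 0.35, adjusted p = 0.0171) for SCI + SCS against Sham and -0.22 (SE 0.20, adjusted p = 0.551) for SCI + SCS against SCI. Per transcript length, Cd4 made up 48.2% (Sham), 39.9% (SCI) and 54.1% (SCI + SCS) of the summed FPKM of the list. Its counts per count of Csf1r, the receptor for the macrophage growth factor CSF1, were 0.22, 0.27 and 0.36 in the Sham, 0.41, 0.28 and 0.44 in the SCI and 0.31, 0.33 and 0.36 in the SCI + SCS libraries, which overlapped in all 3 comparisons. The ratio of Cd4 to another macrophage gene, Cd68, did not overlap between the Sham and the injured groups and is given below. What part of Cd4 came from T cells was not tested.

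Of the 4 genes of the T cell receptor complex, 2 rose after injury (13.4% of all rows tested). Cd3e (ENSRNOG00000016069, chr8:45303852-45314090), the epsilon chain of CD3, had 14, 22 and 29 counts in the Sham, 173, 168 and 117 in the SCI and 44, 11 and 41 in the SCI + SCS libraries. The SCI libraries stood above all others, and SCI + SCS replicate 2 lay below the lowest Sham library in CPM. Cd3e rose in the SCI group by a log2FC of 2.94 (SE 0.32, adjusted p = 0.00151). The difference of SCI + SCS from SCI was -2.14 (SE 0.51, adjusted p = 0.0904 in edgeR and 0.0012 in DESeq2), and that of SCI + SCS from Sham was 0.81 (SE 0.57, adjusted p = 0.300).

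Cd3g, the gamma chain, gave 17, 11 and 18 counts in the Sham, 194, 145 and 111 in the SCI and 68, 21 and 37 in the SCI + SCS libraries. It rose in the SCI group (log2FC 3.34, SE 0.39, adjusted p = 0.00182), and the log2FC was -1.73 (SE 0.44, adjusted p = 0.0959) for SCI + SCS against SCI and 1.62 (SE 0.54, adjusted p = 0.0607) for SCI + SCS against Sham. The SCI + SCS libraries lay between the other groups without overlap.

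Cd3d, the delta chain, had 0, 24 and 15 counts in the Sham, 100, 62 and 41 in the SCI and 37, 0 and 0 in the SCI + SCS libraries. The SCI libraries were again the highest, and the log2FC from Sham was 2.56 (SE 0.94, adjusted p = 0.0603). Without Sham replicate 1, listed at 0, it was called at a log2FC of 2.01 (adjusted p = 0.0293). With a 0 listed in 2 stimulated libraries the error was wide, with a log2FC of -2.37 (SE 1.30, adjusted p = 0.313) for SCI + SCS against SCI.

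Cd247, the zeta chain that T cells share with NK cells, was flatter, with 66 to 87 counts in the Sham, 79 to 164 in the SCI and 67 to 95 in the SCI + SCS libraries, and it did not pass the test in any comparison (log2FC 0.60, SE 0.32, adjusted p = 0.158 for SCI against Sham).

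Among the surface and costimulatory genes, 6 of 8 rose after injury (13.4% of all rows tested). Cd2, an adhesion receptor of T and NK cells, had 11, 26 and 48 counts in the Sham, 269, 169 and 108 in the SCI and 76, 18 and 51 in the SCI + SCS libraries. It rose by 2.82 (SE 0.52, adjusted p = 0.00566), and the log2FC of SCI + SCS from SCI was -1.79 (SE 0.54, adjusted p = 0.119), with the stimulated libraries below the SCI libraries and overlapping the Sham libraries.

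Cd7, an early T and NK cell antigen, had 47, 84 and 40 counts in the Sham, 362, 303 and 262 in the SCI and 94, 46 and 56 in the SCI + SCS libraries. SCI + SCS overlapped Sham and not SCI. The log2FC was 2.54 (SE 0.32, adjusted p = 0.00209) for SCI against Sham, -2.14 (SE 0.29, adjusted p = 0.0719) for SCI + SCS against SCI and 0.41 (SE 0.40, adjusted p = 0.455) for SCI + SCS against Sham. Together with Ptprcap, Cd7 had the lowest adjusted p of the list between SCI + SCS and SCI.

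Cd6, an adhesion receptor of mature T cells, differed from its neighbor Cd5. It had 114, 180 and 412 counts in the Sham, 1315, 1016 and 639 in the SCI and 731, 745 and 737 in the SCI + SCS libraries. The injured groups overlapped each other and stood above the Sham group. The log2FC was 2.22 (SE 0.43, adjusted p = 0.00703) for SCI against Sham, -0.31 (SE 0.22, adjusted p = 0.424) for SCI + SCS against SCI and 1.92 (SE 0.38, adjusted p = 0.0141) for SCI + SCS against Sham.

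Cd5, a negative regulator of receptor signaling, had 0, 26 and 15 counts in the Sham, 90, 68 and 52 in the SCI and 28, 14 and 31 in the SCI + SCS libraries. The stimulated libraries lay below the SCI libraries and overlapped the Sham libraries. Its log2FC was 2.55 (SE 0.92, adjusted p = 0.0579) for SCI against Sham, called without Sham replicate 1, listed at 0 (adjusted p = 0.0204), and -1.40 (SE 0.41, adjusted p = 0.115) for SCI + SCS against SCI.

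The costimulatory genes Cd27, Cd28 and Icos rose after injury by 2.35, 1.60 and 1.95 on the log2 scale (SE 0.65, 0.41 and 0.40). The calls of Cd27 and Cd28 rested on single libraries, with adjusted p of 0.0624, 0.0832 and 0.072 for Cd27 without Sham replicate 1, Sham replicate 2 or SCI replicate 1, and of 0.0563, 0.0544 and 0.0617 for Cd28 without Sham replicate 1, Sham replicate 3 or SCI replicate 2. Icos, induced on activated T cells, had 11, 13 and 10 counts in the Sham, 39, 52 and 33 in the SCI and 14, 18 and 21 in the SCI + SCS libraries, so the groups did not overlap in CPM. Cd27 and Cd28 in the stimulated libraries overlapped the SCI group, with a log2FC from SCI of -0.55 (SE 0.43) and -0.40 (SE 0.42). Ctla4, the inhibitory partner of Cd28, reached at most 14 counts, was 0 in 5 of the 9 libraries and did not pass the filter against Sham.

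In proximal signaling, Lck, Lat, Ptprcap and Acap1 rose after injury. Lck, the kinase that the co-receptors carry to the receptor, had 56, 117 and 150 counts in the Sham, 391, 288 and 282 in the SCI and 121, 87 and 170 in the SCI + SCS libraries. The SCI libraries were above both other groups, which overlapped. The log2FC was 1.72 (SE 0.29, adjusted p = 0.00441) for SCI against Sham and -1.22 (SE 0.30, adjusted p = 0.0931) for SCI + SCS against SCI.

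Lat, the scaffold of the receptor signal, gave 72, 92 and 135 counts in the Sham, 433, 216 and 311 in the SCI and 132, 138 and 186 in the SCI + SCS libraries. It rose by 1.79 (SE 0.30, adjusted p = 0.00428), and the SCI + SCS libraries lay between the other groups (log2FC from SCI of -0.95, SE 0.29, adjusted p = 0.122).

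Ptprcap, whose product binds the leukocyte phosphatase CD45, had 20, 78 and 60 counts in the Sham, 487, 341 and 322 in the SCI and 171, 171 and 145 in the SCI + SCS libraries. The 3 groups stood apart, with a log2FC of 3.02 (SE 0.40, adjusted p = 0.00228) for SCI against Sham, -1.13 (SE 0.18, adjusted p = 0.0719) for SCI + SCS against SCI and 1.90 (SE 0.38, adjusted p = 0.0144) for SCI + SCS against Sham. Its row overlaps Rps6kb2 on the other strand by 24 bases, and in an unstranded library reads over these bases cannot be told apart.

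Acap1, an Arf GTPase-activating protein abundant in lymphocytes, had 11, 109 and 102 counts in the Sham, 466, 389 and 268 in the SCI and 180, 93 and 130 in the SCI + SCS libraries. It rose by 2.54 (SE 0.65, adjusted p = 0.0186, or 0.0512 without SCI replicate 2). The stimulated libraries lay between the other groups in CPM, just above Sham at their lowest (1.32 against 1.24), and below SCI with a log2FC of -1.37 (SE 0.29, adjusted p = 0.0833).

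Zap70, the kinase recruited to the phosphorylated zeta chain, overlapped between the Sham (42 to 100 counts) and SCI (90 to 144 counts) groups, at a log2FC of 0.83 (SE 0.48, adjusted p = 0.188), which became 1.42 (adjusted p = 0.0349) without Sham replicate 1. Its 44 to 74 counts in the SCI + SCS group lay below the SCI group in CPM (log2FC -0.997, SE 0.29, adjusted p = 0.116). Ubash3a, Themis and Trat1, regulators and adaptors of the receptor, reached at most 14, 9 and 36 counts. Ubash3a did not pass the test against Sham, and Themis and Trat1 did not pass the filter.

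Of the transcription factors, Tbx21 and Foxp3 rose after injury. Tbx21 encodes T-bet, which directs type 1 helper, cytotoxic and NK programs, and had 3, 9 and 9 counts in the Sham, 47, 24 and 25 in the SCI and 16, 10 and 10 in the SCI + SCS libraries. Its log2FC was 2.30 (SE 0.49, adjusted p = 0.0099) for SCI against Sham and -1.30 (SE 0.43, adjusted p = 0.137) for SCI + SCS against SCI, with 3 groups that did not overlap in CPM.

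Foxp3, which defines regulatory T cells, had 21, 23 and 35 counts in the Sham, 156, 58 and 47 in the SCI and 34, 15 and 44 in the SCI + SCS libraries. The SCI group exceeded the Sham group by 1.79 (SE 0.50, adjusted p = 0.0251), with SCI replicate 1 far above the other libraries. Without that library the log2FC was 1.16 (adjusted p = 0.0595), and without Sham replicate 1 or 2 the adjusted p was 0.0648 and 0.0886. SCI + SCS overlapped both other groups, at -1.33 (SE 0.58, adjusted p = 0.215) from SCI and 0.47 (SE 0.49, adjusted p = 0.478) from Sham. The Foxp3 row overlaps Ccdc22, a gene of 1219 to 2165 counts on the other strand, by 1751 bases, and their reads there cannot be told apart. Eomes, the relative of T-bet in memory CD8 and NK cells, was at 23 counts or fewer.

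Among the cytotoxic granule genes, Gzmk and Nkg7 rose. Gzmk, the granzyme of memory-like CD8 cells, had 0, 4 and 3 counts in the Sham, 49, 19 and 22 in the SCI and 8, 6 and 9 in the SCI + SCS libraries. These low counts gave a log2FC of 3.74 (SE 0.80, adjusted p = 0.0097) for SCI against Sham and -1.82 (SE 0.51, adjusted p = 0.107) for SCI + SCS against SCI, and no group overlapped another.

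Nkg7, a granule membrane protein of cytotoxic T and NK cells, had 6, 17 and 25 counts in the Sham, 117, 79 and 77 in the SCI and 38, 22 and 31 in the SCI + SCS libraries. The SCI group was 2.65 above Sham on the log2 scale (SE 0.45, adjusted p = 0.00459), and the SCI + SCS group, again in between, differed from SCI by -1.47 (SE 0.33, adjusted p = 0.0854).

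Gzmm was the most abundant granule gene. This granzyme, known from NK cells, had 95, 370 and 608 counts in the Sham, 776, 673 and 1210 in the SCI and 468, 290 and 350 in the SCI + SCS libraries. Sham and SCI + SCS overlapped, and the SCI libraries lay above both. DESeq2 called both differences and edgeR neither, at 1.52 (SE 0.54, adjusted p = 0.0551) for SCI against Sham and -1.18 (SE 0.29, adjusted p = 0.0931) for SCI + SCS against SCI. The former was called at 2.08 (adjusted p = 0.0241) without Sham replicate 3.

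Perforin and the classical granzymes were close to the floor. Prf1 had at most 20 counts and Gzmb at most 16, and Gzma was listed at 0 in all Sham libraries and in 2 of 3 libraries in each injured group. None of these 3 genes passed the filter against Sham in edgeR, and DESeq2, run without it, called Prf1 higher in SCI (adjusted p = 0.0402).

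All 4 NK receptor genes were above the Sham libraries in every SCI library, which was so for 27% of the rows with any count. In edgeR 0 of 4 passed the test (13.4% of rows tested were higher). Of these, 2 passed an unadjusted p under 0.05 with |log2FC|>1 (Cd96 and Klrd1, against 14.8% of rows tested). DESeq2 called 2 (Cd96 and Ncr1, against 11.9% of rows), and edgeR without the filter called Ncr1 (adjusted p = 0.0264, against 10.3% of rows). Cd96, a receptor of NK and T cells, came closest, with 0, 11 and 20 counts in the Sham, 74, 66 and 33 in the SCI and 28, 23 and 16 in the SCI + SCS libraries and a log2FC of 2.66 (SE 0.92, adjusted p = 0.0506) for SCI against Sham. It was called without Sham replicate 1 (adjusted p = 0.0304) and without Sham replicate 3 (adjusted p = 0.0457), the latter also for Klrk1 and Klrd1 (adjusted p = 0.0358 and 0.0451). Klrk1, which encodes NKG2D, had 0, 16 and 96 counts in the Sham, 90, 148 and 77 in the SCI and 73, 18 and 68 in the SCI + SCS libraries, and its lowest SCI library was level with the highest Sham library in CPM (1.11 and 1.10).

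Ncr1, which encodes NKp46, the receptor that best marks NK cells, was listed at 0 in the Sham group and had 7, 18 and 6 counts in the SCI and 0, 6 and 0 in the SCI + SCS libraries. Against a floor of 3 counts per Sham library, its mean CPM in the SCI group was at least 3.73-fold higher, and in the SCI + SCS group it was under that floor. Klrd1, which encodes CD94, had 4, 9 and 0 counts in the Sham, 26, 22 and 18 in the SCI and 29, 0 and 9 in the SCI + SCS libraries (log2FC 2.41, SE 0.88, adjusted p = 0.0601 for SCI against Sham).

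The cytokine receptors differed from each other. Il2rb, a chain shared by the receptors for interleukins 2 and 15, rose after injury (log2FC 2.02, SE 0.41, adjusted p = 0.00796), with 22, 25 and 46 counts in the Sham, 173, 104 and 75 in the SCI and 79, 31 and 53 in the SCI + SCS libraries. The stimulated libraries overlapped both other groups. Il7r, the receptor of naive and memory T cells, had 192 to 396 counts in the Sham, 267 to 467 in the SCI and 193 to 263 in the SCI + SCS libraries, with a log2FC of 0.43 (SE 0.25, adjusted p = 0.189) for SCI against Sham and -0.56 (SE 0.21, adjusted p = 0.164) for SCI + SCS against SCI.

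The subsets were compared with overlapping lists, since no gene here is carried by a single subset. After injury, 3 of 4 helper genes (Cd4, Cd28 and Icos, not Il7r) rose, as did 4 of 9 cytotoxic genes (Cd8a, Cd8b, Gzmk and Nkg7), 2 of 3 regulatory genes (Foxp3 and Icos), 2 of 6 NK genes (Il2rb and Tbx21) and 6 of 10 pan T cell genes, against 13.4% of all rows tested. The median log2FC over every gene of a list with a row was 1.72, 2.65, 1.92, 2.35 and 2.38 in that order. In SCI + SCS against SCI the medians were -0.49, -1.19, -1.13, -1.15 and -1.32, and in SCI + SCS against Sham 1.02, 1.96, 0.84, 1.13 and 0.83. These medians were taken without the filter on low counts and without bounds for genes at 0. They include Gzma (cytotoxic) and Ncr1 (NK), listed at 0 in all Sham libraries. In SCI against Sham, 4 of 9 cytotoxic and 2 of 6 NK genes did not pass the filter. The differences between these medians were not tested.

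Per transcript length, the summed FPKM of the helper list was 11.1 ± 4.92 in Sham, 37.8 ± 5.71 in SCI and 33.3 ± 5.57 in SCI + SCS libraries (mean ± SD, n = 3), and the injured groups overlapped. Without Cd4, the other 3 helper genes summed to 1.04 ± 0.244, 1.65 ± 0.281 and 1.11 ± 0.101, and the stimulated libraries lay below the SCI libraries and among the Sham libraries.

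The cytotoxic sum was 3.98 ± 2.56 in Sham, 25.6 ± 5.94 in SCI and 13.3 ± 2.47 in SCI + SCS libraries, without overlap. With Cd8a and Cd8b left out it was 1.32, 3.82 and 6.15 in the Sham, 9.37, 9.85 and 16.8 in the SCI and 6.35, 3.89 and 5.42 in the SCI + SCS libraries, so that the stimulated group overlapped the Sham group. Gzmm carried most of that remainder. The other 6 genes summed to 0.233 ± 0.126, 1.66 ± 0.291 and 0.614 ± 0.195, again without overlap.

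The regulatory sum was 0.159 ± 0.0536 in Sham, 0.606 ± 0.211 in SCI and 0.281 ± 0.127 in SCI + SCS libraries, and the stimulated libraries overlapped both other groups. The NK sum was 0.146, 0.254 and 0.676 in the Sham, 1.39, 1.78 and 1.32 in the SCI and 1.11, 0.322 and 0.833 in the SCI + SCS libraries, with the stimulated libraries below SCI and overlapping Sham. The pan T cell sum was 3.72 ± 0.819, 14.7 ± 2.31 and 7.89 ± 1.27, without overlap between groups.

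**Figure D3:**
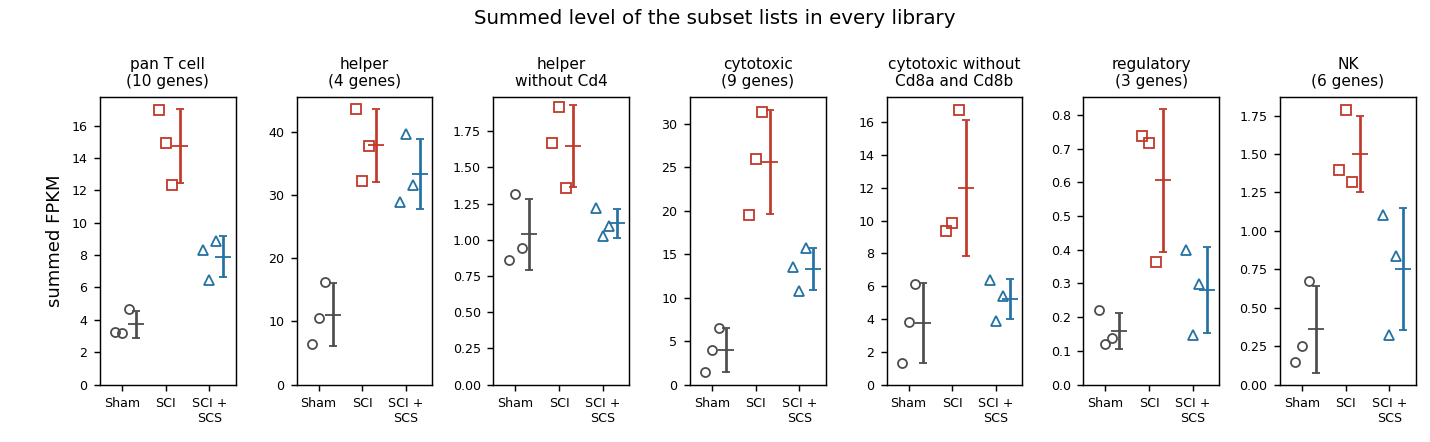
Summed FPKM of the subset lists in each library, as points by group, with the mean and SD of 3 rats as bars beside them. The helper sum averaged 33.3 in SCI + SCS with Cd4 and 1.11 without it, and the cytotoxic sum averaged 25.6 in SCI and 13.3 in SCI + SCS.

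The members were also compared with each other within each library, which does not depend on its total. Counts of Cd8a per count of Cd3e were 0.93 to 1.10 in the Sham, 4.92, 6.03 and 8.60 in the SCI and 10.3, 41.4 and 17.5 in the SCI + SCS libraries. The 3 groups were ordered without overlap, and the value of 41.4 rests on 11 counts of Cd3e. Cd8b per Cd3e was 0, 0 and 0.90 in the Sham, 3.76, 4.78 and 5.38 in the SCI and 8.66, 31.2 and 8.83 in the SCI + SCS libraries. Cd6 per Cd3e was 8.14, 8.18 and 14.2 in the Sham, 7.60, 6.05 and 5.46 in the SCI and 16.6, 67.7 and 18.0 in the SCI + SCS libraries, the highest in the stimulated group.

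Counts of Cd4 per count of Cd3e were 96.2, 132 and 170 in the Sham, 78.4, 44.5 and 75.7 in the SCI and 161, 891 and 170 in the SCI + SCS libraries, so the SCI group was below both others. Among the 37 members other than Cd3e, the ratio to Cd3e was higher without overlap in SCI + SCS than in SCI for 18, lower for 0 and overlapping for 19, and for 20 it was higher when SCI + SCS replicate 2, with 11 counts of Cd3e, was left out. All these ratios share the same counts of Cd3e, which were 173, 168 and 117 in the SCI and 44, 11 and 41 in the SCI + SCS libraries. The median log2FC over all rows was -0.01 between these groups, so a row that did not change also rises against Cd3e. The share of all rows with a higher ratio was not computed, and these counts are not a trait of the members named. Beyond the co-receptors and Cd6, those without overlap included Cd28, Lat, Il2rb, Ptprcap, Icos and Lck, with differences in mean log2 ratio of 1.94, 1.44, 1.35, 1.25, 1.25 and 1.09. Cd3g per Cd3e ranged from 0.50 to 1.91, Cd2 from 0.79 to 1.73 and Cd7 from 1.37 to 4.18 over the 9 libraries, and these ratios overlapped between all groups. Cd8b per Cd8a was 0.76, 0.79 and 0.63 in the SCI and 0.84, 0.75 and 0.50 in the SCI + SCS libraries. The FPKM of Cd3e was not used in ratios, since the transcript length implied by counts and FPKM ranged from 2203 to 3543 bases over the libraries.

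**Figure D4:**
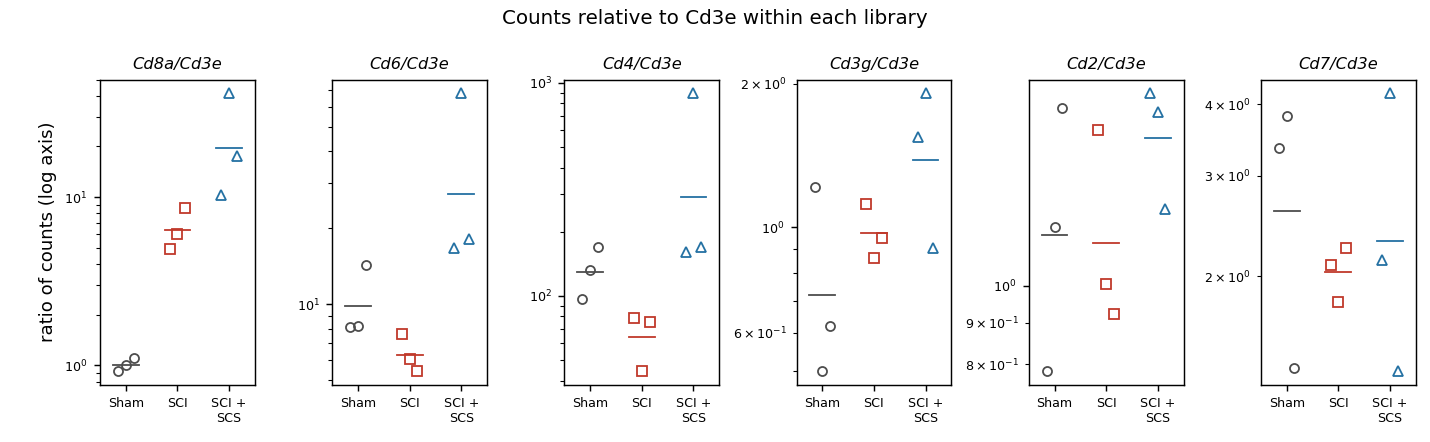
Ratio of the counts of 6 genes to the counts of Cd3e in the same library, on log axes that differ between panels, with lines at the geometric mean of 3 rats. Cd8a per Cd3e was lowest in Sham (0.93 to 1.10) and highest in SCI + SCS (10.3 to 41.4), and Cd3g, Cd2 and Cd7 per Cd3e, 3 of the 19 ratios that overlapped between SCI + SCS and SCI, overlapped between all groups.

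The balance of the co-receptors was tested as the log2 ratio of Cd8a to Cd4 FPKM. It was -5.68, -6.01 and -6.18 in the Sham, -2.91, -1.80 and -2.05 in the SCI and -2.88, -3.34 and -2.19 in the SCI + SCS libraries. Both injured groups were above the Sham group, by 3.70 and 3.15 in the mean, each with p = 0.1 in a two-sided exact permutation test, the smallest that 3 rats against 3 can give. SCI + SCS and SCI overlapped (difference -0.55, exact permutation p = 0.3).

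Beyond the members, 63 of 70 further T and NK cell genes had a row, of which 25 rose and 2 fell in SCI against Sham (13.4% and 13.6% of all rows tested). The largest changes past the test were in the checkpoint receptor Tigit, the lymph node homing receptor Ccr7, which dendritic cells share (log2FC 5.36), Slamf6 (4.80), Tnfrsf18 (4.21), the cathepsin Ctsw of cytotoxic cells (3.62) and Pdcd1, which encodes PD-1 (3.58). Ccr7, Slamf6 and Tnfrsf18 were listed at 0 in 2 of the 3 Sham libraries and had 5, 12 and 7 counts in the other, so their fold changes rest on 1 Sham library. Tigit was listed at 0 in all Sham libraries and had 18, 18 and 12 counts in the SCI libraries, at least 5.69-fold above the Sham floor of 3 counts per library. Bcl11b and S1pr1, which fell by 1.20 and 1.05 on the log2 scale, are also expressed outside lymphocytes, in neurons and in endothelium and glia.

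In SCI + SCS against SCI, 0 of these 63 genes passed the test in edgeR (12 lower and 1 higher at an unadjusted p under 0.05 with |log2FC|>1, against 2.56% and 3.03% of rows), and DESeq2 called 9 lower (1.6% of rows), which were Ctsw, Cxcr3, Cxcr6, Ccl5, Il18rap, Slamf6, Cd69, Gimap4 and Sit1. Cxcr3, the CXCL10 receptor of type 1 T and NK cells, had 8, 20 and 43 counts in the Sham, 236, 134 and 157 in the SCI and 44, 37 and 56 in the SCI + SCS libraries. Its log2FC was 3.04 (SE 0.52, adjusted p = 0.00462) for SCI against Sham and -1.82 (SE 0.31, adjusted p = 0.0719 in edgeR and 2.31e-05 in DESeq2) for SCI + SCS against SCI. Cxcr6, a receptor of tissue-resident T and NK cells, rose by 1.95 (SE 0.37, adjusted p = 0.00668) and differed by -1.63 (SE 0.33, adjusted p = 0.0793 in edgeR and 0.000468 in DESeq2) under stimulation.

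In SCI + SCS against Sham, 7 of the 63 were higher, against 6.28% of all rows tested, among them Ccr7 (log2FC 4.38), Slamf6 (3.69), Pdcd1 (2.07), Il21r (1.68), Itgal (1.62) and Lag3 (1.52). Ifng, which encodes interferon gamma, a cytokine of T and NK cells, had 5 counts in SCI replicate 2 and was listed at 0 in the other 8 libraries.

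Markers of several other cell types also differed between the groups, and their part in these results was not tested. Of all rows tested, 13.4% were higher and 13.6% lower in SCI against Sham, and 6.28% were higher in SCI + SCS against Sham. In SCI + SCS against SCI, 50.7% of rows had a log2FC below 0. The marker counts below stand beside these shares. Ptprc, which encodes the pan-leukocyte phosphatase CD45, was 3.84 to 9.81 CPM in the Sham, 22.1 to 31.4 in the SCI and 18.6 to 20.4 in the SCI + SCS libraries. Counts of Cd3e per count of Ptprc did not overlap between any groups and were highest in SCI, at 0.076 to 0.096. SCI + SCS replicates 1 and 3 (0.0332 and 0.0339) were level with the lowest Sham library (0.0340). SCI + SCS replicate 2 (0.0076) was lower and rests on 11 counts of Cd3e. The macrophage and monocyte markers, of which 5 of 6 rose after injury and 6 of 6 had a log2FC below 0 in SCI + SCS against SCI without passing the test, summed to 159 to 463, 1674 to 2259 and 1304 to 1349 CPM. Counts of Cd8a per count of Cd68, a lysosomal protein of macrophages, overlapped between all groups, whereas those of Cd3e per Cd68 did not and were lowest in SCI + SCS. Cd4 per Cd68 was lower than Sham without overlap, by a mean log2 ratio of -4.12 in SCI and -3.66 in SCI + SCS. Cd8a per Ptprc was higher than Sham without overlap, by 3.61 in SCI and 3.23 in SCI + SCS. In both ratios SCI and SCI + SCS overlapped. Cd4 per Ptprc overlapped between all groups. The microglia markers, of which 0 of 5 passed the test in any comparison (0 of 5 at an unadjusted p under 0.05 with |log2FC|>1, and 0 in DESeq2), summed to 261 to 337, 321 to 488 and 387 to 504 CPM. B and plasma cell markers, of which 2 of 7 rose, summed to 1.05 to 1.99, 3.79 to 5.79 and 2.82 to 3.28 CPM. Neutrophil markers, of which 3 of 5 rose in each injured group against Sham, summed to 3.54 to 7.81 in the Sham, 13.2 to 28.1 in the SCI and 17.3 to 33.5 CPM in the SCI + SCS libraries, and the injured groups overlapped. Of 5 dendritic cell markers, 3 rose and 1 fell in SCI against Sham. The erythroid genes Hba-a2 and Alas2, of which neither passed the test, summed to 11.4 to 61.7, 36.2 to 143 and 43.0 to 103 CPM. Of the 5 mast cell genes, Fcer1a and Tpsb2 were listed at 0 in every library, Cpa3 had at most 4 counts and Mcpt1l1 at most 9. Kit had 308 to 872 counts and did not pass the test in any comparison.

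Skeletal muscle markers summed to 3559 and 1054 CPM in SCI replicates 1 and 3, against 11.3 in SCI replicate 2 and 13.6 to 65.0 in the other groups. Of the 38 members, SCI replicate 2 was the lowest of the SCI group for 7, the highest for 10 and in between for 21. Cd4 and Lat were lowest there, at 172, 106 and 128 CPM for Cd4 and 5.49, 3.06 and 4.50 CPM for Lat, while Cd3e was highest, at 2.19, 2.38 and 1.69 CPM. Adipocyte markers, led by Cfd and Fabp4, summed to 2.82 to 8.88, 86.8 to 114 and 26.5 to 42.6 CPM, while Adipoq never exceeded 21 counts. Of the 5 adipocyte markers, 2 rose in SCI against Sham (13.4% of all rows tested). Plin1 did not, with 12, 17 and 27 counts in the Sham, 10, 10 and 20 in the SCI and 24, 8 and 16 in the SCI + SCS libraries. With the listed muscle and adipocyte markers alone removed before normalization (7 and 5 rows), the counts of lymphocyte genes called were again 20, 0 and 5. Other transcripts of these tissues stayed in, so this refit cannot show whether their presence mattered, which was not tested. All 4 oligodendrocyte and all 5 neuron markers fell in SCI against Sham (13.6% of all rows tested). In SCI + SCS against SCI their log2FC was above 0 (8706 of 17663 rows) without passing the test.

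**Figure D5:**
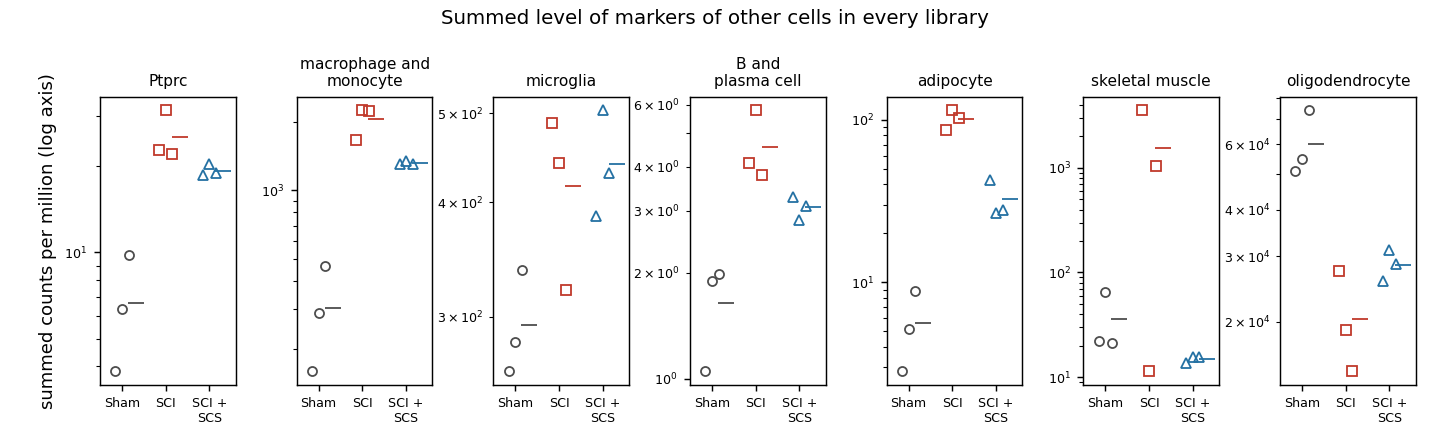
Summed CPM of marker genes of other cells in each library, on log axes that differ between panels, with lines at the mean of 3 rats. The macrophage and adipocyte sums were highest in the SCI group, the latter led by Cfd and Fabp4 and not shared by Plin1. The muscle markers were high in 2 of the 3 SCI libraries (3559 and 1054) and at 11.3 in the third.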

How the data were processed

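mRNA was enriched with oligo(dT) beads from 9 rat cords and sequenced from both ends without strand information. The submitters' processing notes name fastp 0.23.2, HISAT2 2.2.1 and the build mRatBN7.2, and the counting program was not given in the sources used here. Per gene, the authors deposited unnormalized counts and, in a second table, FPKM, in which counts were divided by transcript length and library total. Libraries were grouped by the condition and number in their labels. The labels say nothing of litters or cages, and the study states that rats were housed in shared cages. Which rats shared a cage was not given. The p-values measure the spread between these rats, and a cage shared by a whole group could not be told apart from its treatment.

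The deposited counts of the 6 libraries of each pair of groups were fitted by the quasi-likelihood method of edgeR 4.0.16 (R 4.3.3) after its default filter on low counts and TMM scaling, p-values were adjusted over all rows tested (Benjamini-Hochberg), and the SE was taken as the log2FC divided by the square root of F. DESeq2 1.42.0 and limma 3.58.1 on log2(FPKM + 1) and log2(FPKM + 0.1) were alternatives. The study's methods name DESeq2 in another version. The edgeR, DESeq2 and limma fits were tried on simulated counts, and the permutation test was not. The genes changed in that simulation were not among the lowest, so it does not cover members near the floor. Floors of 3 counts cover counting error only. All members are named. Of the 70 further genes, up to 6 called genes with the largest |log2FC| per comparison and Cxcr3 and Cxcr6 are named, and any others named were chosen after their values were seen. The members and lists were chosen with earlier results of these data known. A gene among those further genes is not reported here.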

Additional observations from a re-analysis of the deposited data

How the results depend on the processing

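In SCI against Sham, 20 lymphocyte genes were called, 18 to 23 when any library was left out, and 11 with limma on log2(FPKM + 1), 10 with that scale without a filter, and 2 with SCI replicate 2 as the only SCI library, where the spread comes from the Sham group alone and the lone library is assumed to vary like it. In SCI + SCS against SCI, the 0 calls became 11 lower with DESeq2, 1 (Cd7) and 2 (Cd7 and Ptprcap) with limma on log2(FPKM + 1) and log2(FPKM + 0.1), and 0 to 2 when a library was left out (Cd3d and Cd7 without SCI + SCS replicate 1). In SCI + SCS against Sham, the 5 calls became 1 to 7 when a library was left out. The cause of these shifts was not tested. The other alternatives (no filter, at least 10 counts in every library, DESeq2 size factors, all 9 libraries in one fit, the listed muscle and adipocyte markers removed, no fold threshold, and limma on log2(FPKM + 0.1) against Sham) left each count within 1.5 times.

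Same-numbered rats did not deviate together (r of -0.33 to 0.24), so the numbers were not taken as pairs. With the replicate block, 21, 0 and 2 genes were called, the last Cd8a and Cd6.

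The sign turned in 0 of 524, 2 of 562 and 6 of 438 gene-level values. For SCI + SCS against SCI, Cd4 was 0.12 with SCI replicate 2 as the only SCI library and Cd247 was 0.0084 without SCI replicate 1 (-0.47 to 0.0084 when a library was left out). For SCI + SCS against Sham, Cd3d was -1.45 with the block, -0.34 without Sham replicate 1 and -6.52 without SCI + SCS replicate 1, where both remaining stimulated libraries are listed at 0 (-6.52 to 0.94), Zap70 was 0.43 (-0.48 to 0.43) and Gzmm was -0.049 (-0.049 to 0.92) without Sham replicate 1, and Il7r was 0.079 (-0.22 to 0.079) without Sham replicate 2. The log2 ratio of Cd8a to Cd4 kept its direction under all its alternatives, with 3.48 to 4.03, -0.88 to -0.28 and 2.84 to 3.42 when a library was left out.

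The low genes are measured least surely, and 15 of 38 were listed at 0 in 1 or more Sham libraries. Whether depth set these zeros was not tested.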
